A study of Mus musculus with 16 samples.

Results

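Ubiquitin-specific proteases are the largest family of deubiquitylating enzymes. They are cysteine proteases that cut ubiquitin from proteins or take ubiquitin chains apart, and so work against the ligases that mark proteins for the proteasome. Some act at the proteasome itself and recycle ubiquitin there, and others spare single substrates such as p53, histones or endosomal receptors. The genes were taken by symbol, as Usp followed by a number and at most 1 lower-case letter, which gave 50 of the 23356 genes in the tables.

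RNA was sequenced from NIH3T3 cells, a mouse fibroblast line, with a stable DD-sfGFP transgene. DD is an unstable FKBP12 mutant that the proteasome removes unless a ligand is bound, and sfGFP is superfolder green fluorescent protein. The study describes the ligand as kept in the medium unless DD was to be unfolded. It does not state this separately for the samples used here. The control group was harvested unstressed at 0 min, and the other groups at 45, 135 and 405 min of bortezomib, a proteasome inhibitor whose dose the labels do not give. Each of the 4 groups held 4 libraries. All groups, the control included, carried the transgene in cells sorted for high GFP, and all 3 times were set against the same control with no vehicle-treated cells at matched times, so drug and elapsed time cannot be told apart. The labels do not say whether replicates were separate cultures, so the p-values measure only the spread between these libraries, which may be technical. The data are from bulk RNA, in which fewer cells of a kind and less RNA per cell cannot be told apart.

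The libraries stood apart from each other in make-up. In 7 of them, ribosomal protein transcripts took 4.25% to 9.42% of the assigned fragments, and in 9 they took 0.398% to 1.21%. The 7 consisted of the first and second replicates of 45 and 135 min and of 405 min replicates 1, 3 and 4. No control library passed 4%. Total fragments ran from 1385229 to 19930375 in the 7 and from 570323 to 1469951 in the 9. All 8 fibroblast markers examined were detected, with a summed level of 3410 to 19179 CPM (counts scaled to a common library size) in the 7 and 227 to 1580 CPM in the 9. The 14 markers of epithelial, leukocyte, endothelial and neural cells had sums per list of at most 78.7 CPM in the 7 and of 40.5 to 279 CPM in the 9, with ranges that overlapped between the kinds of library for the leukocyte and neural lists only. No marker was at 0 in every library of either kind. Olfactory and vomeronasal receptor genes (symbols starting Olfr or Vmn and a digit) took 0.00556% to 2.62% of fragments in the 7 and 4.16% to 5.13% in the 9. Among the 7 their share was highest in 405 min replicate 3 (2.62%) and 135 min replicate 2 (1.42%). The part of such fragments in the value of a Usp gene was not tested. The course of bortezomib was therefore read in the 7 libraries, between 45, 135 and 405 min, and the comparisons with control are given after it.

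Of all the family's transcripts, those of a few members made up much of the total. Levels are compared between genes only as normalised CPM per kilobase of the longest coding transcript, averaged over the 7 libraries. Usp1, which deubiquitylates PCNA and the Fanconi anaemia protein FANCD2 (mm9 chromosome 4, 98590501 to 98602234, plus strand), came first with 96.4 ± 31.8 CPM per kb (SD, n = 7 here and below). Usp15, which acts on Mdm2 and on signalling proteins, followed with 74.4 ± 23.0, and Usp47, an enzyme of base excision repair (mm9 chromosome 7, 119167020 to 119254900, plus strand), with 72.0 ± 23.6. Usp8, which deubiquitylates endosomal receptors, had 44.6 ± 11.7, and Usp14, the proteasome-bound member, had 40.5 ± 11.3. Together these 5 held 43.0% of the summed level of the 49 members with a coding transcript length. Usp1 was among the 3 highest members in 7 of 7 libraries, Usp15 and Usp47 in 6 of 7 each, Usp14 in 1 and Usp8 in 0.

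Most neighbours in this order lay close against the spread between libraries. In 47 of 48 neighbouring pairs the gap between the means was under the SD of the higher member. Examples were Usp15 and Usp47, and Usp14 and Usp7 (40.0 ± 19.8). The exception was the step from Usp47 to Usp8, 27.4 CPM per kb. The SD spans 3 times, and both members of a pair were measured in the same libraries. It therefore does not test their order within libraries. Usp16, for example, lay above its neighbour Usp34 in all 7 libraries. In all, 10 members averaged over 20 CPM per kb, 20 lay between 5 and 20, and 19 were at 5 or less. For comparison, the median was 12.6 CPM per kb over the 8009 genes with a length and at least 1 count in each of the 7 libraries, and 16 members lay above it. Over all 19565 genes with a length, those without counts included, the median was 2.86 CPM per kb, and 36 of the 49 members lay above it. By the FPKM values the authors deposited, 4 of the 5 highest members were the same, with Usp7 in the place of Usp14.

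**Figure D1:**
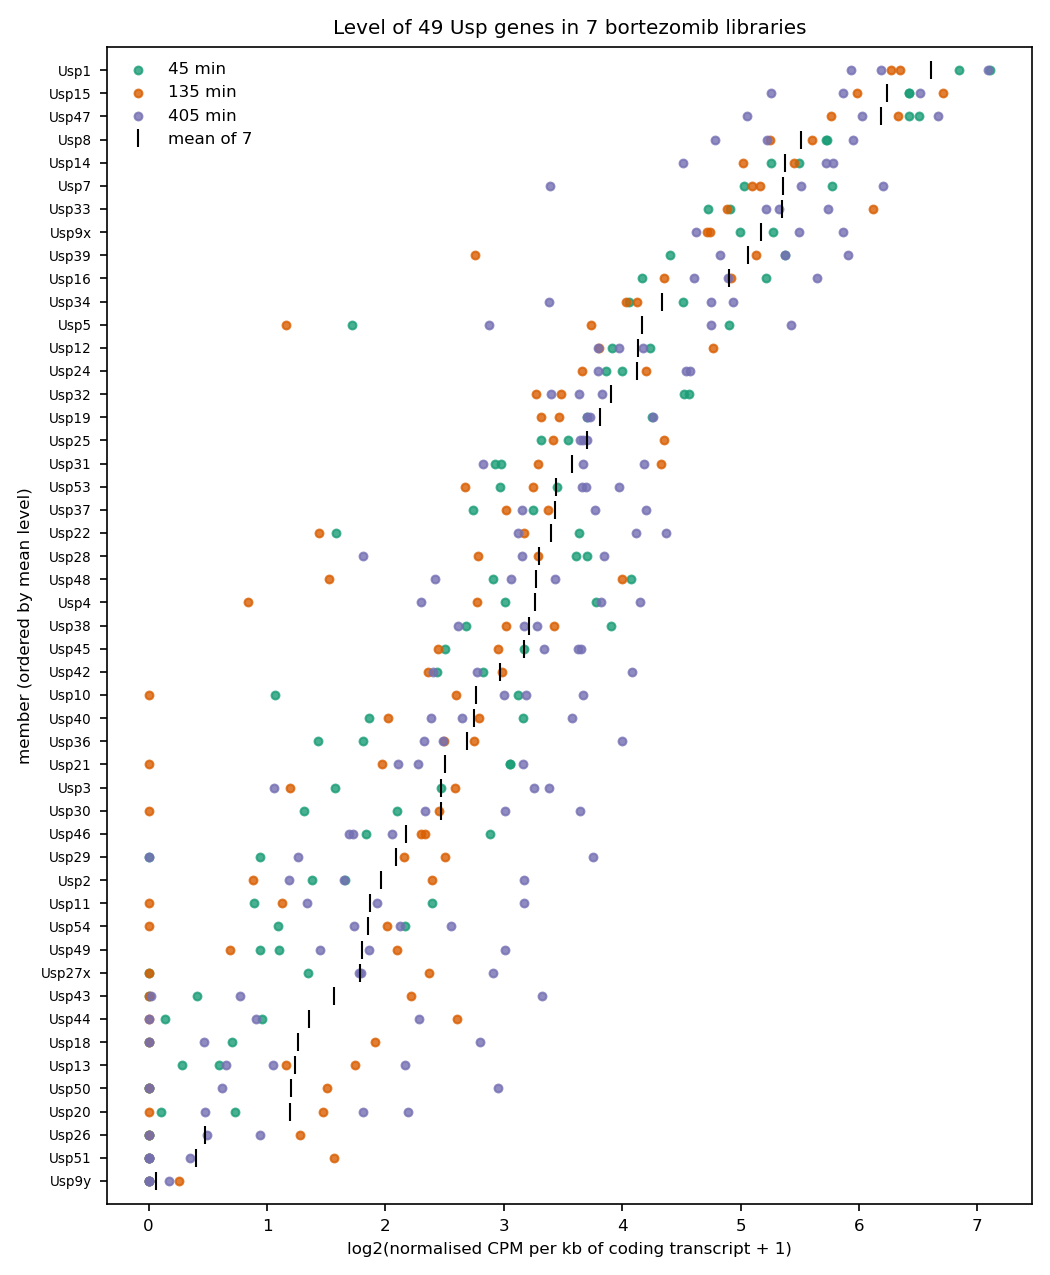
Level of the 49 Usp genes with a coding transcript length (rows, ordered by mean) on a log2 axis of normalised CPM per kilobase plus 1; each point is 1 of the 7 libraries, coloured by minutes of bortezomib, and the bar is their mean. Usp1, Usp15 and Usp47 stand at the top and 19 members average at most 5 CPM per kb, with points of single libraries spread widely among the low members.

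At the other end, 9 members had fewer than 10 fragments in each of the 2 deepest libraries (45 min replicate 1 and 405 min replicate 4, where 3 fragments, the number that a count of 0 allows, correspond to 0.163 and 0.151 CPM). These were Usp18, Usp26, Usp29, Usp35, Usp43, Usp44, Usp50, Usp51 and Usp9y. Usp18, which removes the interferon-induced modifier ISG15 from proteins, had 0 fragments in both. Usp26 and Usp29, known from the germ line, and Usp9y, on the Y chromosome, also had 0 in both. In the 9 libraries with little ribosomal protein signal, which were far shallower, these genes had median counts of 1 (Usp9y) to 64, for example 9 fragments for Usp18 (12.8 CPM), 39 for Usp29 (47.4 CPM) and 64 fragments for Usp43 (71.8 CPM). The 9 members were chosen from their counts in the 2 deepest libraries, so their low level there is a description.

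The make-up of the family thus differed between the kinds of library. Usp1, Usp15, Usp47, Usp8 and Usp14 together took 24.5% to 43.1% of all Usp fragments in the 7 libraries. In the 9 they took 4.34% to 15.8%, with no overlap. The 5 members with the most fragments in each library, which were other genes in many of the 9, took 36.3% to 51.4% in the 7 and 22.6% to 35.5% in the 9. The 9 low members took 0.001% to 4.16% in the 7 and 5.76% to 13.7% in the 9. The whole family took 0.266% to 0.412% of all fragments in the 7 and 0.212% to 0.262% in the 9. In 405 min replicate 3, which had the lowest ribosomal protein share of the 7 (4.25%), Usp1, Usp15, Usp47, Usp8 and Usp14 took 26.6% and the 9 low members 4.16%, the largest share of the low members among the 7. Both sets were chosen in libraries of the 7, so the direction of these differences is a description, and the part of library make-up in each member's value was not tested.

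**Figure D2:**
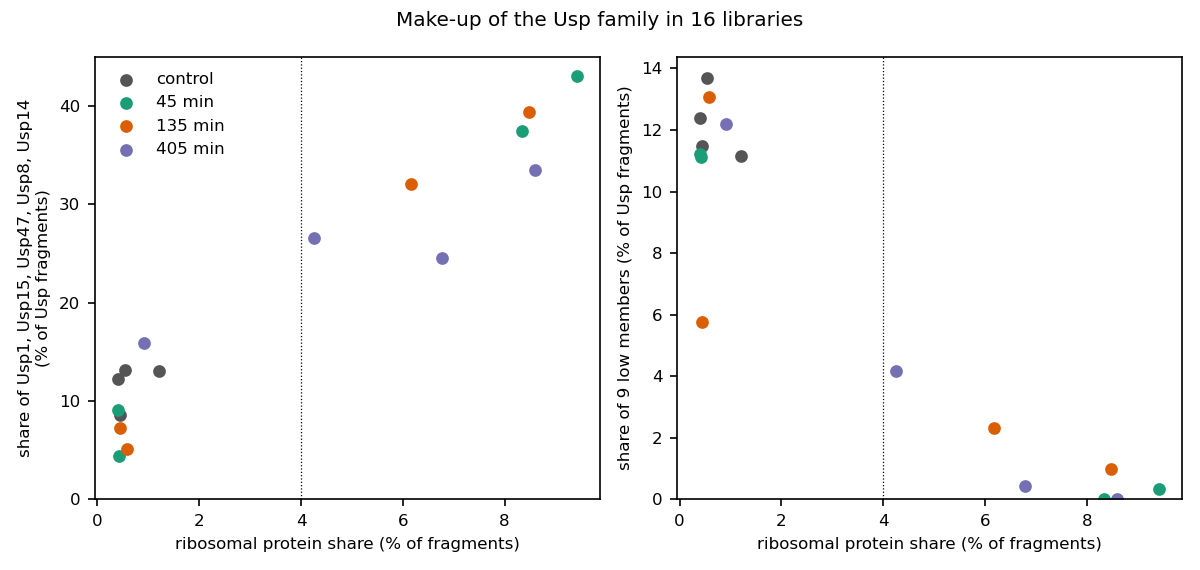
Share of Usp fragments held by Usp1, Usp15, Usp47, Usp8 and Usp14 together (left) and by the 9 low members (right) against the share of ribosomal protein fragments, all in percent, with 1 point per library coloured by group and a dotted line at 4%. Right of the line these 5 hold 24.5% or more and left of it 15.8% or less, and all 4 controls lie on the left.

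The first question for the course was whether any Usp gene changed between times. Of the 34 members with at least 1 fragment in every one of the 7 libraries, 0 were called between any pair of times with edgeR's quasi-likelihood test and an adjusted p under 0.05 as the limit (percent called among all 8605 genes tested: 0 in each direction). At an unadjusted p under 0.05, 1 member was higher at 405 than at 45 min (2.94% of members, against 3.01% of all genes) and 0 were lower (against 4.15%). From 45 to 135 min 0 members reached it in either direction (against 1.28% of genes higher and 0.36% lower), and from 135 to 405 min again 0 (against 1.46% and 1.86%). Estimates above 0 numbered 11 of 34 from 45 to 135 min (32.4%, against 46.3% of all genes), 23 from 135 to 405 min (67.6%, against 57%) and 22 from 45 to 405 min (64.7%, against 55.7%). The median log2 fold change of the members was -0.19 from 45 to 135 min (all genes -0.07), 0.43 from 135 to 405 min (all genes 0.16) and 0.31 from 45 to 405 min (all genes 0.14). The smallest adjusted p of any member was 0.997, 0.909 and 0.69 in turn. The standard errors of the members from 45 to 405 min ran from 0.51 to 1.16 log2 units (median 0.64). On counts simulated for that comparison at the estimated dispersion, this test recovered 0 of 194 genes changed 4-fold. A count of 0 called members therefore cannot show that the members did not change.

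The member with the unadjusted p under 0.05 was Usp36, a nucleolar enzyme of ribosome assembly that also acts on histone H2B (mm9 chromosome 11, 118120965 to 118151558, minus strand). It had 14.2 and 9.60 normalised CPM at 45 min, 32.4 and 26.3 after 135 min, and 84.7, 22.7 and 26.1 at 405 min. Both 45 min libraries lay below all 5 later ones, while the 135 and 405 min libraries overlapped. The log2 fold change was 1.91 ± 0.80 (SE) from 45 to 405 min (unadjusted p = 0.0377, adjusted p = 0.69, edgeR quasi-likelihood test) and 1.30 ± 0.83 from 45 to 135 min (adjusted p = 0.997). One library, 405 min replicate 1, held the top value, and without it the log2 fold change to 405 min was 1.04.

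From 45 to 405 min, 7 of the 34 members (20.6%) had all 405 min libraries above both 45 min libraries, where 10.5% of all genes did. They were Usp13, Usp25, Usp33, Usp36, Usp45, Usp49 and Usp53. In the other direction 1 member (2.94%), Usp32, had all 405 min libraries below, where 14.6% of all genes did. From 45 to 135 min, 3 members lay wholly above (8.82%, against 16.9% of all genes) and 8 wholly below (23.5%, against 18.3%). From 135 to 405 min the numbers were 3 above (8.82%, against 8.44%) and 1 below (2.94%, against 7.07%). None of these members was called in the test.

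**Figure D3:**
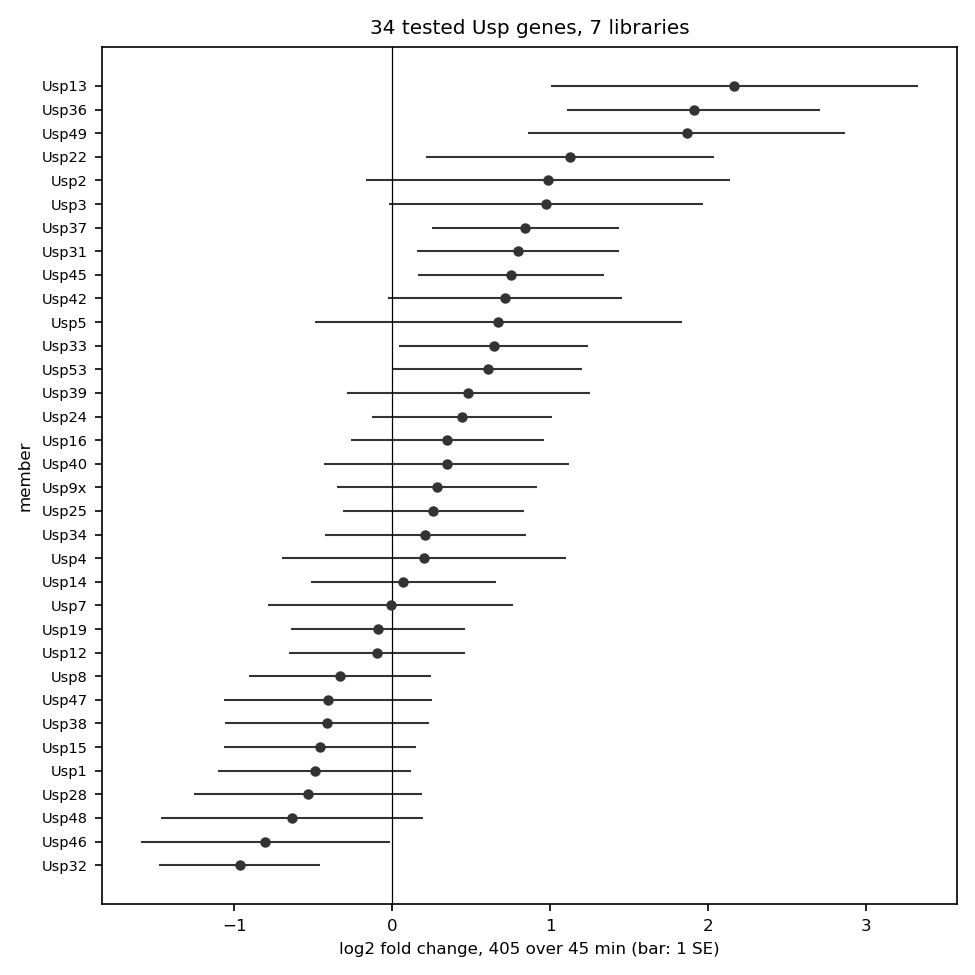
Log2 fold change from 45 to 405 min for the 34 tested Usp genes in the 7 libraries, ordered by size, with bars of 1 SE from the edgeR fit and a line at 0. Of the 34, 22 lie above 0, and none was called at an adjusted p under 0.05.

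The members that recycle ubiquitin are those closest to the proteasome. Usp14, which trims ubiquitin from proteasome-bound proteins, had 104 and 87.9 normalised CPM at 45 min, 101 and 74.3 after 135 min, and 127, 51.4 and 122 at 405 min. The groups overlapped, and the log2 fold change from 45 to 405 min was 0.07 ± 0.59 (adjusted p = 0.981), with a sign that turned under several settings. Usp14 shares exonic sequence with Thoc1 on the opposite strand, and whether the counting used strand was not given in the sources used here.

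Usp5, which takes apart free ubiquitin chains, averaged 16.98 ± 15.5 CPM per kb, an SD nearly as large as the mean. It had 92.6 and 7.38 normalised CPM at 45 min, 3.96 and 39.6 after 135 min, and 135, 20.4 and 83.1 at 405 min. The replicates of each time thus differed by far more than the times did, and the log2 fold change from 45 to 405 min was 0.67 ± 1.16 (adjusted p = 0.877). Without 45 min replicate 2 it was -0.17, in the opposite direction.

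Usp13, the close relative of Usp5, was low. It had 3.89 and 1.66 normalised CPM at 45 min, 9.36 and 17.8 after 135 min, and 8.15, 26.5 and 4.35 at 405 min. All later libraries lay above both 45 min libraries, if by little in 405 min replicate 4. The values of 17.8 and 26.5 came from 135 min replicate 2 and 405 min replicate 3, which had the most Olfr and Vmn fragments of the 7. Over 45 min, the estimate was 2.27 ± 1.22 log2 units after 135 min (adjusted p = 0.997) and 2.17 ± 1.16 after 405 min (adjusted p = 0.692). The latter became 1.14 without 405 min replicate 3 and 2.89 without 45 min replicate 1.

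Of the members that act on p53 and its ligase Mdm2, 6 of 7 were tested, with a median log2 fold change of 0.32 from 45 to 405 min. Usp7, which stabilises both proteins, had 294 and 174 normalised CPM at 45 min, 182 and 192 after 135 min, and 244, 52.1 and 399 at 405 min. The 405 min libraries spanned all the others, and the log2 fold change was -0.01 ± 0.77 (adjusted p = 0.998). Usp15 had 273 in both libraries at 45 min, 335 and 201 after 135 min, and 120, 185 and 292 at 405 min (log2 fold change -0.46 ± 0.61, adjusted p = 0.844).

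Usp10 and Usp2 were less abundant. Usp10, which works with G3bp1 and acts on p53, had 28.7 and 4.06 normalised CPM at 45 min, 0 and 18.8 after 135 min, and 43.7, 30.2 and 26.1 at 405 min. It was not tested, since 135 min replicate 1 held 0 fragments of it. Usp2, which stabilises Mdm2 and cyclin D1, had 6.22 and 8.31 at 45 min, 3.24 and 16.5 after 135 min, and 8.29, 31.0 and 4.91 at 405 min, with overlapping groups and a log2 fold change of 0.99 ± 1.15 (adjusted p = 0.823). Its values of 16.5 and 31.0 also came from 135 min replicate 2 and 405 min replicate 3. Without the latter library the log2 fold change was -0.14.

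The enzymes of histones and chromatin were the role group with the highest median, 1.12 from 45 to 405 min over the 5 of 9 that were tested. All 5 had a positive estimate and 0 were called, against a median of 0.31 over all tested members. Besides Usp36 they were Usp49, an H2B enzyme, with 1.87 ± 1.003, Usp22, the deubiquitylase of the SAGA coactivator, with 1.12 ± 0.91 (0.40 without 45 min replicate 2 and 2.88 without 45 min replicate 1), Usp3 with 0.97 ± 0.99 and Usp16, an H2A enzyme, with 0.35 ± 0.61. Usp22 had 50.5 and 8.86 normalised CPM at 45 min, 7.56 and 35.5 after 135 min, and 87.5, 34.01 and 72.6 at 405 min, so its groups overlapped. The highest Usp49 values, 27.0 and 58.2 normalised CPM, likewise came from 135 min replicate 2 and 405 min replicate 3. Exons of Usp49 overlap those of Med20 and Tomm6, and exons of Usp16 those of Cct8. The annotation also has shared exonic sequence on opposite strands for Usp2 and Rnf26, Usp34 and Ahsa2, and Usp37 and Vil1.

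Most of the tested enzymes of DNA repair, replication and the cell cycle had negative estimates, 4 of 6, with a median of -0.45 from 45 to 405 min and 0 called. Usp1 had 489 and 408 normalised CPM at 45 min, 288 and 272 after 135 min, and 257, 215 and 485 at 405 min. Both 135 min libraries lay below both 45 min libraries (log2 fold change -0.68 ± 0.68, adjusted p = 0.997), and 405 min replicate 4 was back within their range (-0.49 ± 0.61 at 405 over 45 min, adjusted p = 0.832). Usp47 had 497 and 469 at 45 min, 440 and 296 after 135 min, and 355, 178 and 558 at 405 min (-0.41 ± 0.66, adjusted p = 0.87). The positive estimates were those of Usp37, a cyclin A enzyme, with 0.84 ± 0.59, and Usp45, which acts on the repair nuclease subunit ERCC1, with 0.75 ± 0.59.

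**Figure D4:**
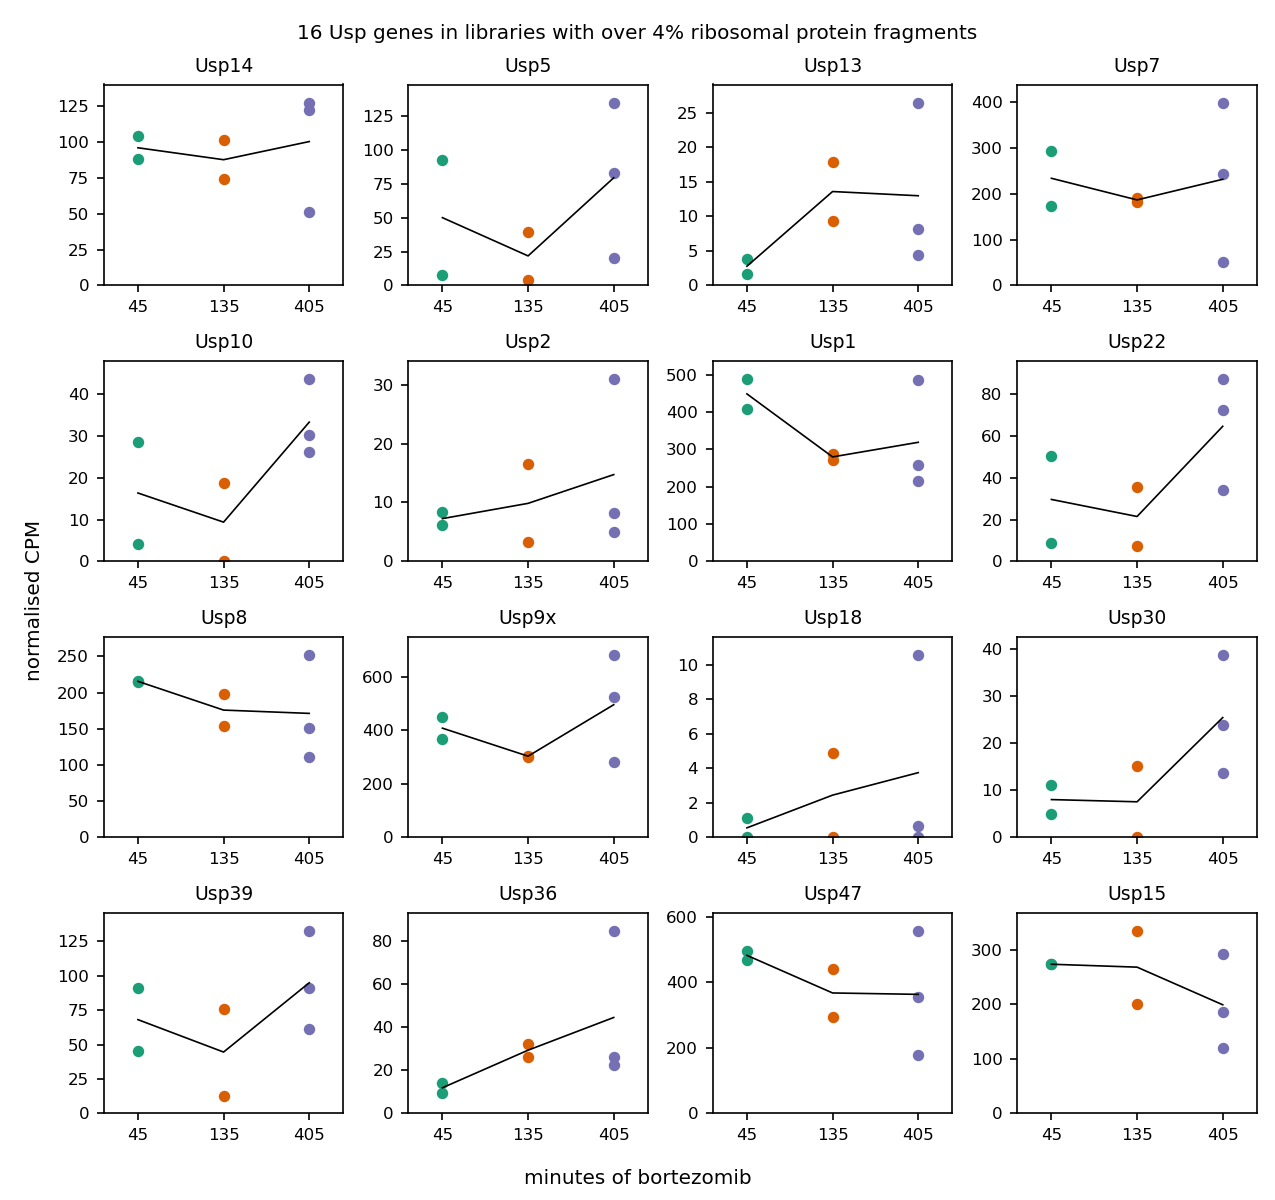
Normalised CPM of 16 named Usp genes at 45, 135 and 405 min of bortezomib in the 7 libraries, with 1 point per library, a line through the means and a vertical axis that starts at 0 in every panel. Both 45 min points of Usp36 and Usp13 lie below all later points, whereas the 405 min points of Usp7, Usp8 and Usp47 span the points of the earlier times.

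Among the enzymes of the endosome, endoplasmic reticulum, mitochondrion and Golgi, 6 of 8 were tested, 3 with positive and 3 with negative estimates from 45 to 405 min (median 0.08). Usp8 had 216 and 215 normalised CPM at 45 min, 198 and 154 after 135 min, and 151, 110 and 252 at 405 min (log2 fold change -0.33 ± 0.58, adjusted p = 0.879). Usp9x, an enzyme with many substrates, had 448 and 368 at 45 min, 301 and 306 after 135 min, and 524, 281 and 682 at 405 min (0.28 ± 0.63, adjusted p = 0.911). In both genes the 135 min libraries lay below the 45 min libraries and the 405 min libraries lay on both sides of them.

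Usp32 and Usp33 stood at the ends of this group. Usp32, an enzyme of Golgi and late endosomes, had 160 and 155 normalised CPM at 45 min, 61.2 and 71.9 after 135 min, and 80.8, 67.3 and 93.3 at 405 min. Both 45 min libraries lay above the other 5, and the log2 estimate over 45 min was -1.24 ± 0.57 after 135 min (adjusted p = 0.997) and -0.97 ± 0.51 after 405 min (adjusted p = 0.692). Usp33, which acts on receptors at the membrane, had 121 and 106 at 45 min, 285 and 119 after 135 min, and 163, 150 and 218 at 405 min (0.64 ± 0.60, adjusted p = 0.779). Usp32 and Usp33 were singled out after their values had been seen.

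Usp30, the enzyme of the outer mitochondrial membrane that counters mitophagy, had 11.04 and 4.99 normalised CPM at 45 min, 0 and 15.1 after 135 min, and 38.7, 13.6 and 23.9 at 405 min. All 405 min libraries lay above both 45 min libraries, but the gene was not tested, having 0 fragments in 135 min replicate 1. Usp39, a splicing protein without catalytic residues, had 91.1 and 45.2 at 45 min, 12.96 and 76.2 after 135 min, and 90.8, 61.2 and 133 at 405 min (0.48 ± 0.77, adjusted p = 0.869). Usp18 stayed near 0, with 0 and 1.11 normalised CPM after 45 min, then 0 and 4.90, and finally 0.67, 10.6 and 0. In the remaining role groups 0 members were called as well, and the medians from 45 to 405 min were 0.67 for ubiquitin recycling (3 tested), -0.26 for interferon, Wnt and other signalling (4 tested), 0.54 for members described as inactive (2 tested) and 0.57 for members with no role assigned here (2 tested). The highest Usp18 value came from the library with the lowest ribosomal protein share of the 7.

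The 16 members without a test in the course, which include Usp10, Usp18 and Usp30, each lacked a fragment in at least 1 of the 7 libraries, in 14 cases in 135 min replicate 1. That library and 135 min replicate 2 differed along base composition. Over the 49 members, the log ratio of replicate 1 to replicate 2 correlated with transcript GC content at r = -0.56 (rho -0.55). Over the 34 tested members r was -0.49. Over 8009 genes, which also had a count in each of the 7 libraries, it was -0.28. For 405 min replicate 4 over replicate 1 the r values of the 34 members and the 8009 genes were -0.59 and -0.52. For 45 min replicate 2 over replicate 1 they were -0.17 and -0.27. For 405 min replicate 3 they were -0.07 and -0.22 over replicate 1, and 0.21 and 0.09 over replicate 4, so the direction was not the same in all pairs. These correlations are across genes, which are not independent replicates, and the transcripts of the members ran from 37.9% GC (Usp9y) to 57.4% GC (Usp19). Usp5, at 55.7% GC, and Usp36, at 55.9%, lay near the upper end. The part of base composition in their values was not tested.

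Promoter sequence is shown for 3 members, namely Usp36, the only one with an unadjusted p under 0.05 in the course, Usp13, the tested member with the highest estimate there, and Usp47, the member with the highest estimate against control. Of the 50 members, 38 had a promoter in the RefSeq table (GRCm38.p6, that is mm10, which the labels name, whereas the study's methods name mm9), and the 250 bases before the start were searched on both strands. The antioxidant response element was searched as TGACNNNGC, the heat shock element as GAA, TTC and GAA with 2 free bases between these units, and the CARE element, bound by Atf4, as TGATGNAA, and no letters of one match were shared with another in the printed promoters. The antioxidant element letters occurred in 6 of the 38 member promoters (15.8%, against 10.2% of all 32851 promoters), in Usp13, Usp20, Usp25, Usp26, Usp34 and Usp36. The CARE letters occurred in 1 (2.63%, against 3.45%), Usp26, and the heat shock letters in 0 (against 0.466%). Such matches are descriptions of the letters only. Capitals mark the antioxidant element match, which lies 221 bases before the start in Usp36 (chr11:118290245-118290494, minus strand) and 101 bases before it in Usp13 (chr3:32817376-32817625, plus strand). The Usp47 window (chr7:112023256-112023505, plus strand) holds none.
Usp36: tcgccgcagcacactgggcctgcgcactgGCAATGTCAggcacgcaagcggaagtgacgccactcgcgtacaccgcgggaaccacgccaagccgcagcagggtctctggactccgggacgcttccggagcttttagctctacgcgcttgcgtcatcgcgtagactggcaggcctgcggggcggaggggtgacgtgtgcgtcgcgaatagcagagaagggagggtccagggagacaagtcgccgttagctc
Usp13: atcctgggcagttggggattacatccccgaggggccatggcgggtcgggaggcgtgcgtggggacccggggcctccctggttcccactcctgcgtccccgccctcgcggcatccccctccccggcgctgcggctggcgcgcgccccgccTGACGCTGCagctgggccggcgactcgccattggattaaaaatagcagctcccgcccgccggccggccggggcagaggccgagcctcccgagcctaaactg
Usp47: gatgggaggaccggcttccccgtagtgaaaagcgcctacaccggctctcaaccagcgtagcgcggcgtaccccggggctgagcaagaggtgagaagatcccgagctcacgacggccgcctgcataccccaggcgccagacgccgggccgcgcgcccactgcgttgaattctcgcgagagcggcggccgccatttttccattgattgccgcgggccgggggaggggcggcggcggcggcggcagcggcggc

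Against control, all 16 libraries were fitted together, and 21 members had a fragment in every library. Of these, 0 were called at 45, 135 or 405 min in the edgeR quasi-likelihood test (percent called among 5030 genes: 0 in each direction). At an unadjusted p under 0.05, 1 member was higher at 45 min (4.76%, against 12.1% of all genes), 1 at 135 min (4.76%, against 7.83%) and 3 at 405 min (14.3%, against 14.5%), and 0 were lower (against 0.775%, 1.35% and 1.51%). The median log2 fold change of the members was 0.70, 0.61 and 0.61 at the 3 times, where that of all genes was 0.14, 0.16 and 0.11. The estimate was above 0 for 17, 16 and 17 of the 21 members (81%, 76.2% and 81%), against 54.9%, 56.2% and 53.1% of all genes. The 3 comparisons share the 4 control libraries, none of which was over 4% ribosomal protein share. The 45, 135 and 405 min groups held 2, 2 and 3 libraries over it. Drug and kind of library are therefore mixed in these estimates. Comparisons within the libraries at or under 4% are given below. On counts simulated for 405 min against control at the estimated dispersion, 2 of 189 genes changed 4-fold were recovered. The counts of 0 here cannot show an absence of change either.

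The members with an unadjusted p under 0.05 were Usp47 at 45 and 405 min, Usp25, which acts on proteins of the endoplasmic reticulum, at 135 min, and Usp34, a Wnt pathway enzyme, and Usp5 at 405 min. Usp47 had log2(CPM + 1) values of 6.35, 6.64, 5.63 and 6.15 in the controls and 9.23, 6.79, 8.18 and 9.93 at 405 min (replicates 1 to 4). All 405 min libraries lay above all controls, and the log2 fold change was 2.73 ± 1.16 (unadjusted p = 0.0298, adjusted p = 0.288). At 45 min the values were 9.80, 9.76, 6.59 and 5.10. The 2 libraries with over 4% ribosomal protein fragments lay above every control there, and the other 2 lay below the highest control.

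Usp25 had log2(CPM + 1) values of 1.38, 5.24, 4.61 and 5.72 in control and 7.29, 6.19, 6.61 and 5.33 at 135 min (log2 fold change 1.68 ± 0.79, adjusted p = 0.513). Control replicate 1 stood lowest, the groups overlapped, and at 135 min replicate 3, at or under 4%, lay above replicate 2, over 4%. Usp34 had log2(CPM + 1) values of 4.82, 6.75, 6.39 and 5.03 in control and 8.96, 6.41, 7.45 and 9.20 at 405 min (log2 fold change 2.43 ± 0.98, adjusted p = 0.285). Usp5 had 3.95, 4.51, 5.43 and 2.58 in control and 7.84, 4.52, 5.09 and 7.19 at 405 min (2.37 ± 1.06, adjusted p = 0.3). For Usp34 the 3 libraries over 4% lay above all controls, and for Usp5 2 of them did. Of the 21 tested members, Usp47 and Usp1 lay wholly above control at 405 min (9.52% of members, against 7.48% of all genes, and 5.69% lower), Usp9x did so at 45 min (4.76%, against 1.45%, and 2.68% lower), and 0 of the 21 lay wholly above or below control at 135 min (against 3.02% and 3.4%). Among the 29 members that were not tested, Usp16 lay wholly above control at 135 and 405 min and Usp14 and Usp33 at 405 min. Usp20 lay wholly below at 45 min and Usp26, Usp35 and Usp44 at 135 min. Each of the 29 had a count of 0 in at least 1 library, and Usp26, Usp35 and Usp44 had such counts at 135 min. The share over all untested genes was not worked out, so these members are listed as a description only.

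**Figure D5:**
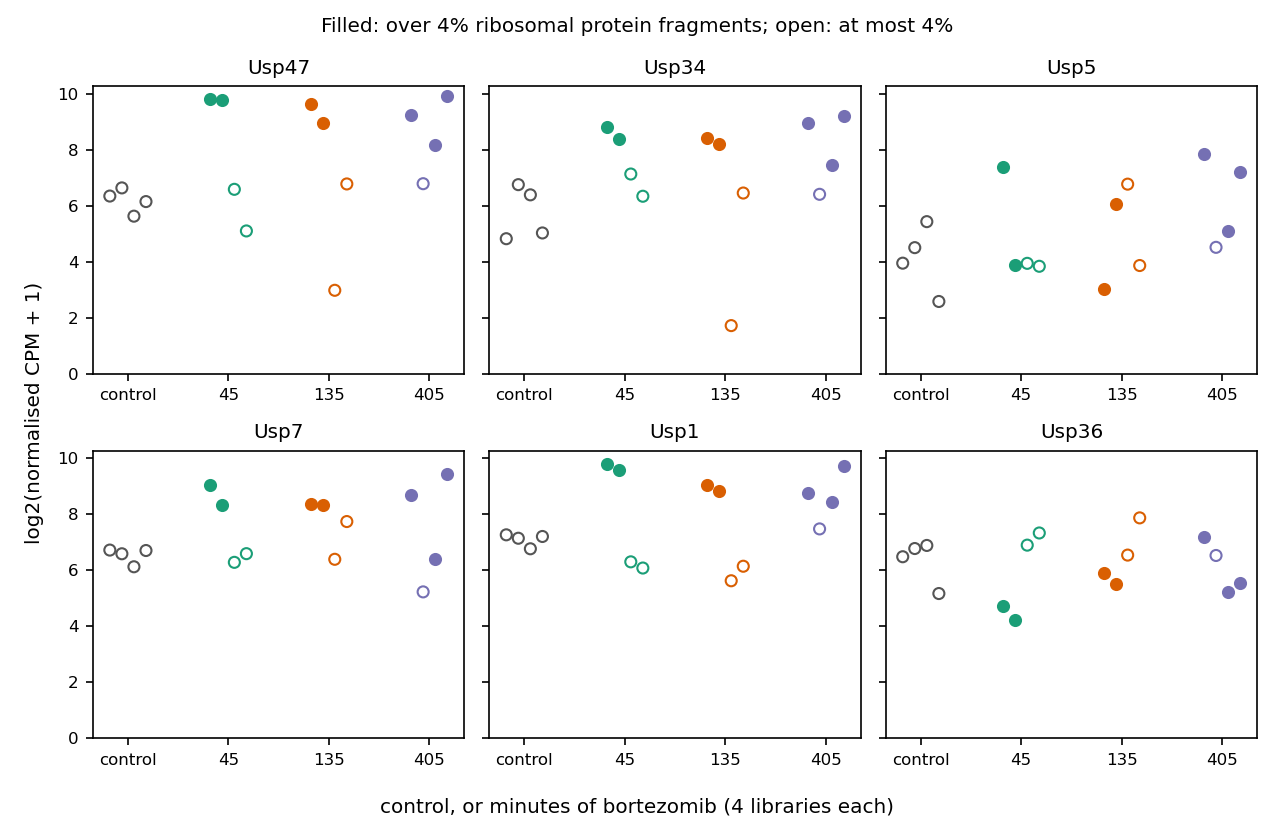
Log2(normalised CPM + 1) of 6 Usp genes in all 16 libraries, grouped as control or by minutes of bortezomib, with filled points for libraries over 4% ribosomal protein fragments and open points for the others. Filled points of Usp47, Usp34 and Usp1 lie above the open points, all filled points are from bortezomib libraries, and those of Usp36 at 45 min lie below the open ones.

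Within the libraries at or under 4%, 45 and 135 min could be compared with the 4 controls, with 2 libraries at each time. Of 26 members tested there, 0 were called, with a median of 0.07 log2 units for 45 min and 0.04 for 135 min, where all genes had 0.002 and 0.04. With the log2 ribosomal protein share as a covariate over all 16 libraries, the medians were 0.20, 0.14 and 0.25 (all genes -0.06, 0.07 and 0.10) and 0 members were called. In that fit the estimates at 405 min for Usp7, Usp1 and Usp8 turned negative (-0.06, -0.50 and -0.66), and that for Usp36 turned positive (1.04, against -0.14 without the covariate). At 405 min only 1 library was at or under 4%, so no comparison within that kind was made.

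The other deubiquitylating enzymes were counted for comparison, from a list of 36 genes of the OTU, UCH, JAMM, Josephin, MINDY and USP-like families. Of these, 25 were tested in the course and 0 were called, with a median log2 fold change of 0.32 from 45 to 405 min. The estimate was highest in Yod1, an OTU enzyme of the p97 pathway (2.499 ± 1.19, adjusted p = 0.691), and lowest in Cyld, which cuts linear and K63-linked chains (-1.21 ± 0.54, adjusted p = 0.691). Of 11 partner proteins of Usp enzymes, 10 were tested and 0 were called, from Eny2, a subunit of the SAGA deubiquitylase module, at -2.07 ± 0.82 to Dmwd, a partner of Usp12 and Usp46, at 2.61 ± 1.13 (adjusted p = 0.69 for both). In the same fit, Hspa1b, a heat-shock gene, had a log2 fold change of 5.74 ± 1.26 and Sqstm1, which encodes the ubiquitin receptor p62, of 3.62 ± 1.44, and neither was called (adjusted p = 0.672 and 0.69). All 34 Usp estimates, from -0.97 (Usp32) to 2.17 (Usp13), lay below those of both genes.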

How the data were processed

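The members and lists were chosen with earlier results of these data known. The authors deposited 1 table per library with raw fragments per gene, which are estimated counts, and FPKM values. Per the study's methods reads were mapped to mm9 with RefSeq genes on DNAnexus, from poly(A) RNA or a NuGEN Encore kit, whereas the labels name total RNA, the NuGEN kit and mm10 (the submitters' processing notes). The aligner and its version were not given in the sources used here. Estimated counts (97.9% to 99.4% whole, to within 1e-09, per library) were rounded. In 1 table, 27 symbols turned into dates were restored from row order. No 2 of 120 library pairs were identical. FPKM, as the authors computed it, was used only for the order of members.

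Genes with at least 1 count in every library were tested with edgeR 4.0.16 (R 4.3.3), by TMM scaling and the quasi-likelihood test with 1 mean per group and Benjamini-Hochberg adjustment over all genes tested (threshold 0.05). This gave 5030 genes in 16 libraries (12 residual degrees of freedom, dispersion 0.625) and 8605 genes in the 7 libraries over 4% ribosomal protein share (4 degrees of freedom, dispersion 0.466), the share being that of 97 genes with symbols starting Rpl or Rps and a digit. A standard error is the estimate over the root of F. CPM used the totals of the tested genes times the TMM factors, and 1 was added before logs were taken. Transcript lengths and GC came from GENCODE M1 (mm9). Named were 13 members of known role, any called, up to 5 per direction with an unadjusted p under 0.05 from 45 to 405 min, and the 5 highest per kilobase. Members outside this rule were named after their values were seen, mostly for groups that did not overlap. On simulated counts with a dispersion of 0.05, 200 of 200 genes changed 4-fold were recovered at 405 min against control (198 of 198 from 45 to 405 min), and at the estimated dispersion 2 of 189 (0 of 194). DESeq2 1.42.0 and the settings below were alternatives. Counting error alone is covered by the floor of 3 fragments.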

Additional observations from a re-analysis of the deposited data

Results flagged for a closer look

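Among 68 sets of 4 libraries, 64 for the 16 named members and 4 for the family's share of fragments, 5 held a library far from the other 3 (gap over range above Dixon's 95% critical value), where chance gives about 1 in 20, or 3.4. All values are log2(CPM + 1). Usp5 was high in 45 min replicate 1 at 7.38, with 3.84 to 3.95 in the other 45 min libraries. Usp10 was low in 45 min replicate 2 at 3.09 (others 5.51 to 5.94), and so was Usp22 at 4.12 (others 6.52 to 6.75). Usp2 was low in control replicate 1 at 3.79 (others 5.67 to 5.97). Usp9x was low in 135 min replicate 3, the shallowest library, at 7.07 (others 8.99 to 9.10). Why these libraries differ was not tested.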

How the results depend on the processing

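The count of called members stayed at 0 in all 85 counts under 26 settings, which include every fit that left out 1 library (lowest and highest 0 in each comparison). As the quasi-likelihood test recovered almost no simulated 4-fold change at the estimated dispersion, these counts cannot show that the members did not change. With DESeq2, 10 to 11 of the 21 members had no adjusted p against control, and over all genes its calls numbered 224 (45 min), 8 (135 min) and 351 (405 min) higher and 1 lower. From 45 to 405 min DESeq2 called 41 genes higher and 21 lower. With the exact test of edgeR 12 genes passed at 405 min against control, and 5 higher and 10 lower from 45 to 405 min. With filterByExpr, 13 of 49 members had an unadjusted p under 0.05 in either direction at 405 min against control (against 9.72% of genes in either direction). All 13 were higher. With no filter the number was 14 of 50, for which the share over all genes is not given here. The all-gene median moved to -0.29 with filterByExpr and -0.31 with no filter, and RLE factors moved it to -0.02, from 0.11. Leaving out single libraries moved the number of members at an unadjusted p under 0.05 between 0 and 5 at 405 min (0 without control replicate 1 or 405 min replicate 4, 5 without 405 min replicate 2), 0 and 4 at 45 min, and 0 and 3 at 135 min. Whether replicate numbers pair the libraries could not be decided (24 same-numbered pairs, r from -0.761 to 0.596, 14 over 0.1). Same-numbered libraries of 45 and 135 min had r from 0.493 to 0.541. At those times the kind of library goes with the replicate number, so the check cannot separate the kind from pairing. With the number as a block, 0 members were called in each of the 6 comparisons, and the cause of the differences below was not tested.

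Of 274 values for single members, 251 kept their direction and 23 reversed. At 405 min against control, Usp36 (-0.14) became 0.75 with filterByExpr, 0.82 with no filter, 1.04 with the covariate, 0.0346 without control replicate 3 and 0.01 without 405 min replicate 3 (range -0.60 to 0.0346 over single libraries left out). With the covariate Usp7 became -0.0563, Usp1 -0.50 and Usp8 -0.66. From 45 to 405 min, Usp14 (0.07) became -0.0561 with filterByExpr, -0.0572 with no filter, -0.0024 when libraries were thinned to 1385229 fragments, and -0.14 to 0.38 with 1 library left out (-0.02 without 45 min replicate 2, -0.14 without 405 min replicate 1, -0.12 without 405 min replicate 4). Usp7 (-0.01) became 0.0157 with RLE factors, 0.0156 with DESeq2, 0.46 over 6% ribosomal protein share, which is without 405 min replicate 3, and 0.44 without 45 min replicate 1 (range -0.68 to 0.46). Usp2 became -0.14 over 6% (1.37 at most), Usp5 -0.17 without 45 min replicate 2 (3.44 at most), and Usp9x -0.0489 without 405 min replicate 4 (0.56 at most). Medians of members against control moved beyond the spread under both filters and within kinds of library, to 0.16 and 0.13 at 135 min and 1.05 and 1.096 at 405 min with filterByExpr and no filter. In the 9 libraries, with totals of at most 1469951 fragments, counting error weighs most on the members with few fragments there.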
